A study of Homo sapiens with 9 samples.

Results

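The comparison set the KDM6A knockout clone KO C28 against the knockout clone KO C22 of the pancreatic cancer line PANC-1, using the 6 libraries of these clones out of 9 in the series. Each clone had 2 Bru-seq libraries and 1 BruUV-seq library, assigned to the clones by their labels. Both clones were made from PANC-1 with CRISPR/Cas9 directed at KDM6A (also named UTX). Each knockout stands for 1 clone, so a difference between them is a difference between clones that carry the same targeted gene. The control line (WT), PANC-1 without a guide RNA, had 2 Bru-seq libraries and 1 BruUV-seq library, which entered no fit of the clones and are given only as a measured background. Cells of every group were labelled for 30 min with 2 mM bromouridine with no chase (0 h), and BruUV-seq cells also received 100 J/m2 of UV light. Whether replicates came from separate cultures is not stated, so each p-value reflects only the variation among these libraries, which may be technical. In bulk RNA, fewer cells making a transcript and less transcript per cell cannot be told apart.

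KDM6A encodes a demethylase that removes methyl groups from lysine 27 of histone H3, a mark laid down by Polycomb repressive complexes at silenced genes. It also belongs to the COMPASS-like complexes that act at enhancers. Cells grown from single founders can differ in transcription even when they carry the same edit, and PANC-1 is known as a line with both ductal keratins and mesenchymal genes. Bru-seq reads the RNA made during a short labelling pulse, over introns and exons alike, and so reports transcription rather than stored RNA. UV lesions stop polymerases inside genes, so BruUV-seq gathers signal near transcription starts.

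Reads are given as CPM, the field's usual count scaled to library size, here the estimated reads in a gene over the library's TMM-scaled total. The 6 libraries held 5.643 to 31.13 M reads in genes, and the WT libraries 22.24 to 25.73 M. Bru-seq KO C28 replicate 2 was the shallowest (5.643 M), and 46.46% of its reads lay outside annotated genes, against 9.929% to 20.01% in the other 5 libraries of the clones. Ductal keratin genes and the mesenchymal genes VIM and ZEB1 had reads in all 9 libraries, while FN1 was at 0.255 to 2.12 CPM. HBB and HBA1 (red cells), INS and SST (islets) were at 0 reads throughout. Other such markers had some reads in Bru-seq KO C22 replicate 1 and in Bru-seq KO C28 replicate 2. These were 18 and 13 for GCG (islets), 51 and 44 for PTPRC (blood), 31 and 31 for DCN (fibroblasts) and 88 and 115 for EMCN (endothelium). The 5 endothelial markers summed to 33.4 CPM in Bru-seq KO C28 replicate 2 and to 1.30 to 8.40 CPM in the other 8 libraries. CDH5, which defines endothelial cells, had 66 reads there and at most 7 in any other library. The part of these features in the results was not tested, and the fitted differences of genes, lists and regions are given with and without that library.

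The targeted gene was transcribed in both clones. KDM6A (ENSG00000147050.14, chrX:44873177-45112602, plus strand, the gene body) stood at 337 and 63.8 CPM in Bru-seq KO C28 against 282 and 432 in KO C22, and 206 against 127 in BruUV-seq (WT 323, 290.0 and 211). Bru-seq KO C28 replicate 2 was the low library, and the clones overlapped. The log2 difference, KO C28 minus KO C22, was -0.34 (SE 0.72; edgeR adjusted p = 0.998, n = 3 libraries per clone) and 0.25 without that library. A small CRISPR lesion leaves gene-body reads in place, so these levels do not check the edit. KDM6B, the paralogous demethylase, stood at 3.06 and 7.44 CPM in Bru-seq KO C28 against 2.23 and 9.52 in KO C22, and 31.9 against 24.2 in BruUV-seq (WT 4.13, 32 and 31.7), with a difference of 0.02 (SE 0.70), -0.32 without that library. CXCL1, the CXCR2 ligand named in the series title, stood at 9.87 and 19.6 CPM in Bru-seq KO C28 against 34.8 and 3.91 in KO C22, and 10.8 against 10.3 in BruUV-seq (WT 5.18, 2.37 and 4.24). Its difference was -0.24 (SE 0.77), and -0.55 without Bru-seq KO C28 replicate 2. Bru-seq KO C22 replicate 1 was its highest library, and without it the difference was 1.15. None of these 3 genes separated the clones.

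Across all genes, the replicates of 1 clone differed about as much as the clones did. Among 11493 genes with a mean of at least 100 reads over the 6 libraries, replicate 1 of KO C22 and replicate 1 of KO C28 differed by a median of 1.22-fold, and the replicates of KO C22 by 1.41-fold. The KO C28 replicates differed by 1.86-fold. A difference of at least 4-fold was met by 2.97% of genes between the first replicates of the clones, by 4.34% between the KO C22 replicates and by 14.0% between the KO C28 replicates. The most alike Bru-seq pair thus joined libraries of different clones. In BruUV-seq, with 1 library per clone and no replicate, the clones differed by a median of 1.30-fold, and 87 genes were at least 4-fold higher and 131 at least 4-fold lower in KO C28.

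**Figure D1:**
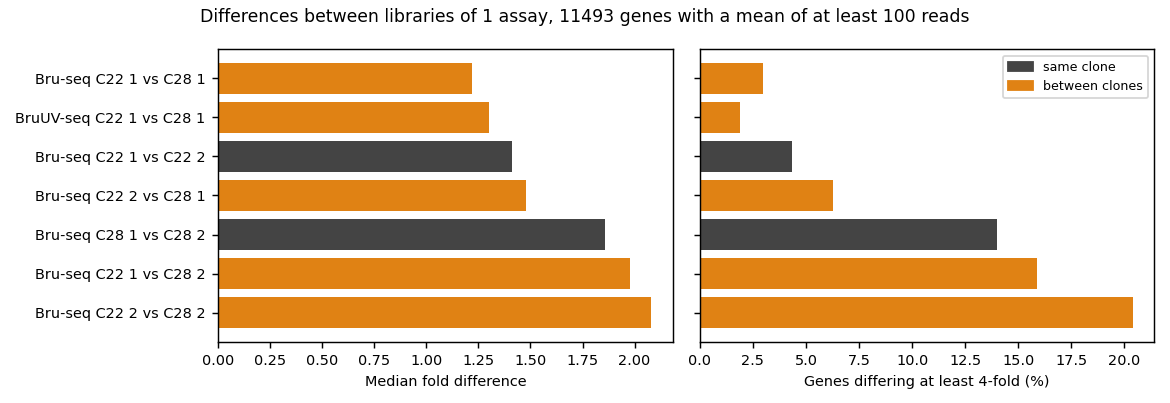
Median fold difference (left axis panel) and percent of genes differing at least 4-fold (right) between libraries of the same assay, over 11493 genes with a mean of at least 100 reads; dark bars join replicates of 1 clone and orange bars join the clones. The pair with the smallest median, 1.22-fold, joins Bru-seq KO C22 replicate 1 with KO C28 replicate 1, and the 3 pairs that hold Bru-seq KO C28 replicate 2 have the largest, 1.86 to 2.08.

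No gene passed the test of the clones. In edgeR's quasi-likelihood test with assay as a covariate and Benjamini-Hochberg adjustment at 0.05, 0 of 22007 genes passed (0.0%), and 591 (2.69%) had an unadjusted p below 0.05, 291 higher (1.32%) and 300 lower (1.36%) in KO C28. Without Bru-seq KO C28 replicate 2, 0 of 19930 passed (0.0%) and 951 had an unadjusted p below 0.05. The fitted biological coefficient of variation was 78.4% with that library and 55.3% without it. Other tools on the same 6 libraries did call genes. DESeq2 called 92 (0.532% of those with an adjusted p), 48 higher (0.277%) and 44 lower (0.254%), and limma-voom with sample quality weights called 163 (0.741%), 61 higher (0.277%) and 102 lower (0.463%). The weighted fit gave Bru-seq KO C28 replicate 2 the lowest weight, 0.205, against 0.497 to 2.40 for the others. Of the 92 and 163 genes, 70 were shared (76.1% and 42.9%), all with the same sign. Unweighted limma-voom called 0, with 619 at unadjusted p below 0.05. Gene differences below are therefore values that did not pass edgeR, named by the smallest unadjusted p.

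A simpler count is of genes whose clones did not overlap within either assay. Both Bru-seq KO C28 libraries lay above both of KO C22, and the BruUV-seq pair differed the same way, for 1680 of 22007 genes (7.63%). The reverse held for 2201 (10.0%). Without Bru-seq KO C28 replicate 2, where 1 library has to clear both of KO C22, the counts were 3799 (19.1%) and 3237 (16.2%) of 19930. The 2 assays come from different libraries, so they can be set side by side. Of the 87 genes at least 4-fold higher in BruUV-seq KO C28, 55 (63.2%) also lay higher without overlap in Bru-seq, against 15.8% of the 11493 genes, and 1 lay lower. Of the 131 genes at least 4-fold lower, 59 (45.0%) also lay lower in Bru-seq, against 21.8% of all, and 1 lay higher. With only replicate 1 of Bru-seq KO C28 the shares were 71.3% and 71.8%, against 35.1% and 28.3% of all. Each of these shares was above that of all genes.

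**Figure D2:**
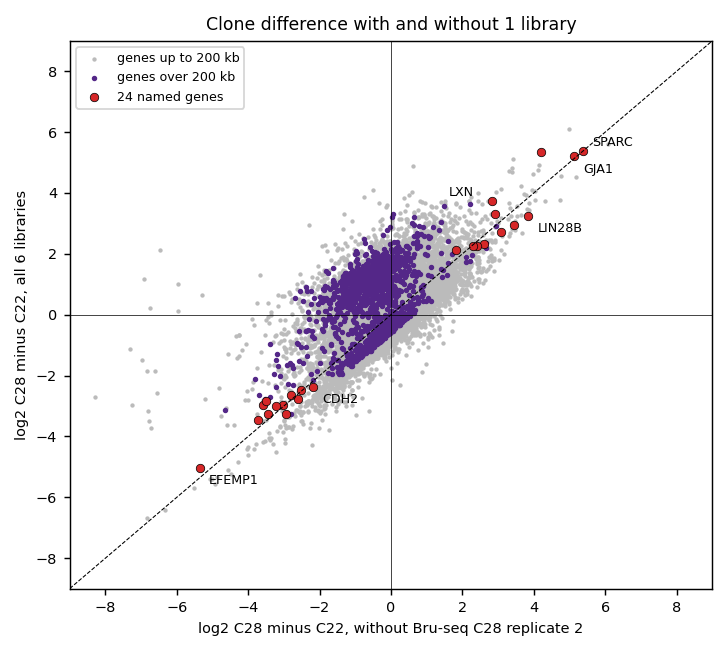
Each point is a gene, with the log2 difference KO C28 minus KO C22 fitted without Bru-seq KO C28 replicate 2 (horizontal axis) and with all 6 libraries (vertical axis); the dashed line marks equal values. Most of the 24 named genes (red) lie near the line, with LXN above it (3.74 against 2.83), while genes over 200 kb (purple) have a median of 0.28 with the library and -0.40 without it.

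The 12 genes higher in KO C28 with the smallest p held cell contact, matrix and RNA-binding genes. GJA1, which encodes the gap junction protein connexin 43 (ENSG00000152661.7, chr6:121435692-121449727, plus strand), stood at 22.9 and 26 CPM in Bru-seq KO C28 against 0.904 and 0.359 in KO C22, and 18.7 against 0.549 in BruUV-seq (WT 6.46, 11.7 and 7.17). All 3 libraries of KO C28 were above WT and all 3 of KO C22 below it. It had a log2 difference of 5.20 (SE 0.72), 5.12 without Bru-seq KO C28 replicate 2 (edgeR adjusted p = 0.453). SPARC, a secreted glycoprotein of the matrix (ENSG00000113140.10, chr5:151661096-151687165, minus strand), stood at 26.2 and 34.6 CPM in Bru-seq KO C28 against 1.81 and 0.404 in KO C22, and 22.7 against 0.157 in BruUV-seq (WT 4.26, 13.8 and 6.25). It had the same order of the lines as GJA1, with no overlap, and the largest difference of the 24 named genes, 5.38 (SE 0.87; edgeR adjusted p = 0.718), 5.37 without Bru-seq KO C28 replicate 2. LIN28B, an RNA-binding protein that blocks maturation of let-7 microRNAs (ENSG00000187772.7, chr6:104940866-105083332, plus strand), stood at 186 and 36.4 CPM in Bru-seq KO C28 against 21.8 and 12.5 in KO C22, and 83.7 against 3.84 in BruUV-seq (WT 239, 112 and 109.5). Here the KO C28 libraries covered the range from below to within that of WT, and the KO C22 libraries were the low ones. RBPMS, another RNA-binding protein, stood at 86.1 and 17.5 CPM in Bru-seq KO C28 against 10.3 and 6.15 in KO C22, and 47.7 against 4 in BruUV-seq (WT 30.8, 34.4 and 34.7). KO C22 was again the low line, while KO C28 lay on both sides of WT.

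To show the sequence at the starts of the genes that separated the clones most, the RefSeq promoters (GRCh38.p14, from 250 bases before to 50 after the start) are printed for the 2 genes of smallest p in each direction that had an entry, with CG pairs in capitals. GJA1 lies at chr6:121435396-121435695, plus strand, SPARC at chr5:151686866-151687165, minus strand, PLPP4 (first listed start) at chr10:120456704-120457003, plus strand, and OSBPL6 (first listed start) at chr2:178194262-178194561, plus strand.
GJA1: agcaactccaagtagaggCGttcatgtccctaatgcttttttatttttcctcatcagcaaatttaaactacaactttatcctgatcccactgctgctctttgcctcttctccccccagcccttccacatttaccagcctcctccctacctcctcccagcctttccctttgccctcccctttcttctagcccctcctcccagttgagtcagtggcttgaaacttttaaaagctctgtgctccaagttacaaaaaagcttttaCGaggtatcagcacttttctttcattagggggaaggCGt
SPARC: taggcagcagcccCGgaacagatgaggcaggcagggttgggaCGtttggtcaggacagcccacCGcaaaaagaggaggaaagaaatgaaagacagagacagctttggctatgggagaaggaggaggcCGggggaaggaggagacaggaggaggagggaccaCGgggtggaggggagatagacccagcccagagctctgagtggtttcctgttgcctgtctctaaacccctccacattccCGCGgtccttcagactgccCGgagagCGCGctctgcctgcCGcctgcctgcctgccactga
PLPP4: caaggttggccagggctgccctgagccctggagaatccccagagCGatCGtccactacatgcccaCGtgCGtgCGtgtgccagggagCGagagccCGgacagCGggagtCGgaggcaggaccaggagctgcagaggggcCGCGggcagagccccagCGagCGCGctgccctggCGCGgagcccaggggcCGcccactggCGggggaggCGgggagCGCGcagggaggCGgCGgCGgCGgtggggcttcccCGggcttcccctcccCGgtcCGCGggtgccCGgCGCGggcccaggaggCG
OSBPL6: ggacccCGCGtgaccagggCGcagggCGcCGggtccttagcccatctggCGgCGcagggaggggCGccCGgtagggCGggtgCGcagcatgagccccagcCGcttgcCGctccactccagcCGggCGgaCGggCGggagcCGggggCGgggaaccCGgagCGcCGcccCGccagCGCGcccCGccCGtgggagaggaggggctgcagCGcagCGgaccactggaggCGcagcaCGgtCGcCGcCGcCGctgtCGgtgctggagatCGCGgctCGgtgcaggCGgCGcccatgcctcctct
The GJA1 window held 3 CG pairs and SPARC 11, under the median of 14 over 35116 promoters, and PLPP4 and OSBPL6, both lower in KO C28, held 33 and 41. Other matched genes went the other way. LIN28B, higher in KO C28, held 37 at its first listed start, and EPHB6, lower in KO C28, held 3. The printed windows thus do not stand for all matched genes. Of the 24 named genes 17 matched the promoter table. Searched on both strands, the AP-1 motif TGACTCA was in a window of 2 of them (GJA1 and GPR176) and in 4.95% of all promoters, and the TEAD motif GGAATG in 5 (GPR176, NPR3, SPARC, SYNE1 and THBS1) and in 14% of all. Several genes have more than 1 listed start, so these counts are a description of letters.

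For 5 of the 12 higher genes WT lay nearer KO C22 in both assays. BTBD11, a BTB-domain protein (ENSG00000151136.14, chr12:107318413-107659642, plus strand), stood at 90.7 and 48.2 CPM in Bru-seq KO C28 against 12.9 and 16.5 in KO C22, and 75.7 against 5.96 in BruUV-seq (WT 5.27, 2.54 and 2.67). AFF3, a nuclear protein of the AF4 family (ENSG00000144218.18, chr2:99545419-100142575, minus strand), stood at 151 and 78.3 CPM in Bru-seq KO C28 against 24.5 and 27.3 in KO C22, and 96.4 against 14.7 in BruUV-seq (WT 11.7, 27.6 and 11.7). KO C28 stood above WT for both genes in every library of its assay. ITGB4, the integrin subunit of hemidesmosomes, stood at 10.8 and 18.8 CPM in Bru-seq KO C28 against 0.691 and 1.39 in KO C22, and 43.9 against 8.79 in BruUV-seq (WT 0.55, 3.36 and 4.02), and its BruUV-seq level in KO C22 was well above its Bru-seq level. PCDH18, a protocadherin, stood at 54.3 and 41.5 CPM in Bru-seq KO C28 against 7.81 and 13.6 in KO C22, and 24 against 4.24 in BruUV-seq (WT 4.63, 7.54 and 4.33). MB, which encodes myoglobin, was near the counting limit outside KO C28, at 3.63 and 23.3 CPM in Bru-seq KO C28 against 0.319 and 0.314 in KO C22, and 9.37 against 0.235 in BruUV-seq (WT 0.0917, 0.862 and 0.787). The latexin gene LXN, an inhibitor of carboxypeptidases that had WT nearer KO C28, stood at 71.2 and 257 CPM in Bru-seq KO C28 against 8.88 and 6.87 in KO C22, and 55 against 10.6 in BruUV-seq (WT 21.3, 73.2 and 36.7). Its value in Bru-seq KO C28 replicate 2 was the highest, and the log2 difference was 3.74 with that library and 2.83 without it. SYNE1, nesprin-1 of the nuclear envelope, and TIMP2, an inhibitor of matrix metalloproteinases, had log2 differences of 2.24 (SE 0.44) and 2.11 (SE 0.48), 2.302 and 1.81 without Bru-seq KO C28 replicate 2.

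Most of the 12 genes lower in KO C28 were genes that stood high in KO C22. EFEMP1, the matrix protein fibulin-3 (ENSG00000115380.19, chr2:55865967-55924139, minus strand), stood at 0.51 and 1.68 CPM in Bru-seq KO C28 against 38.1 and 59.9 in KO C22, and 1.09 against 18.9 in BruUV-seq (WT 3.81, 5.86 and 4.28). The clones lay on either side of WT. It had a log2 difference of -5.04 (SE 0.71), -5.35 without Bru-seq KO C28 replicate 2 (edgeR adjusted p = 0.453). Without the BruUV-seq library of KO C22, EFEMP1 was the only gene of 25448 to pass (log2 difference -5.60, SE 1.03, adjusted p = 0.0323). PLPP4, a phospholipid phosphatase (ENSG00000203805.10, chr10:120456954-120589855, plus strand), stood at 23.7 and 17.6 CPM in Bru-seq KO C28 against 137 and 173 in KO C22, and 9.09 against 49.6 in BruUV-seq (WT 3.35, 4.14 and 2.88). Both clones were above WT, KO C22 by far the more. OSBPL6, a lipid-binding protein related to the oxysterol-binding protein (ENSG00000079156.16, chr2:178194481-178402891, plus strand), stood at 7.01 and 14.4 CPM in Bru-seq KO C28 against 91.3 and 176 in KO C22, and 13.2 against 72.7 in BruUV-seq (WT 11, 12.7 and 6.6). For OSBPL6 the KO C28 libraries lay around the level of WT and every KO C22 library was above both.

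N-cadherin, EPHB6, DOCK10, THBS1, NPR3 and GPR176 had the same order, with WT nearer KO C28 than KO C22. CDH2, which encodes N-cadherin of mesenchymal and neural cell contacts (ENSG00000170558.8, chr18:27950966-28177446, minus strand), stood at 25.9 and 16.9 CPM in Bru-seq KO C28 against 104 and 142 in KO C22, and 17.5 against 75.3 in BruUV-seq (WT 29.1, 23.3 and 28.8). EPHB6, an Eph receptor without kinase activity, stood at 3.12 and 4.44 CPM in Bru-seq KO C28 against 12.7 and 46.8 in KO C22, and 7.65 against 159 in BruUV-seq (WT 2.84, 3.1 and 5.16), the BruUV-seq library of KO C22 being the highest. DOCK10, an exchange factor for small GTPases, stood at 7.71 and 23.8 CPM in Bru-seq KO C28 against 73.3 and 117 in KO C22, and 4.49 against 44.6 in BruUV-seq (WT 7.38, 7.97 and 6.86). These 3 genes thus separated KO C22 from both other lines. THBS1, thrombospondin 1 of the matrix, stood at 1.78 and 7.32 CPM in Bru-seq KO C28 against 29.2 and 52.7 in KO C22, and 16.9 against 102 in BruUV-seq (WT 1.47, 5.26 and 3.1). NPR3, the clearance receptor for natriuretic peptides, stood at 5.8 and 8.76 CPM in Bru-seq KO C28 against 31.5 and 108 in KO C22, and 7.07 against 36.6 in BruUV-seq (WT 2.34, 4.87 and 1.66). GPR176, an orphan G protein-coupled receptor, stood at 11.1 and 14.9 CPM in Bru-seq KO C28 against 59.4 and 116 in KO C22, and 11.4 against 43.1 in BruUV-seq (WT 15.7, 21.4 and 15.1). THBS1 and GPR176 both lie on chromosome 15, within 1 Mb of each other. ARHGEF26, another such exchange factor, and XKR6, of the XK family, had log2 differences of -2.64 (SE 0.54) and -3.02 (SE 0.61), -2.82 and -3.22 without Bru-seq KO C28 replicate 2. LAYN, a membrane receptor for hyaluronan, stood at 4.21 and 1.56 CPM in Bru-seq KO C28 against 25.4 and 36.4 in KO C22, and 2.47 against 20.2 in BruUV-seq (WT 24.4, 25.4 and 18.5), where KO C22 lay around WT and the KO C28 libraries were the low ones. In XKR6, too, WT lay nearer KO C22 in both assays.

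**Figure D3:**
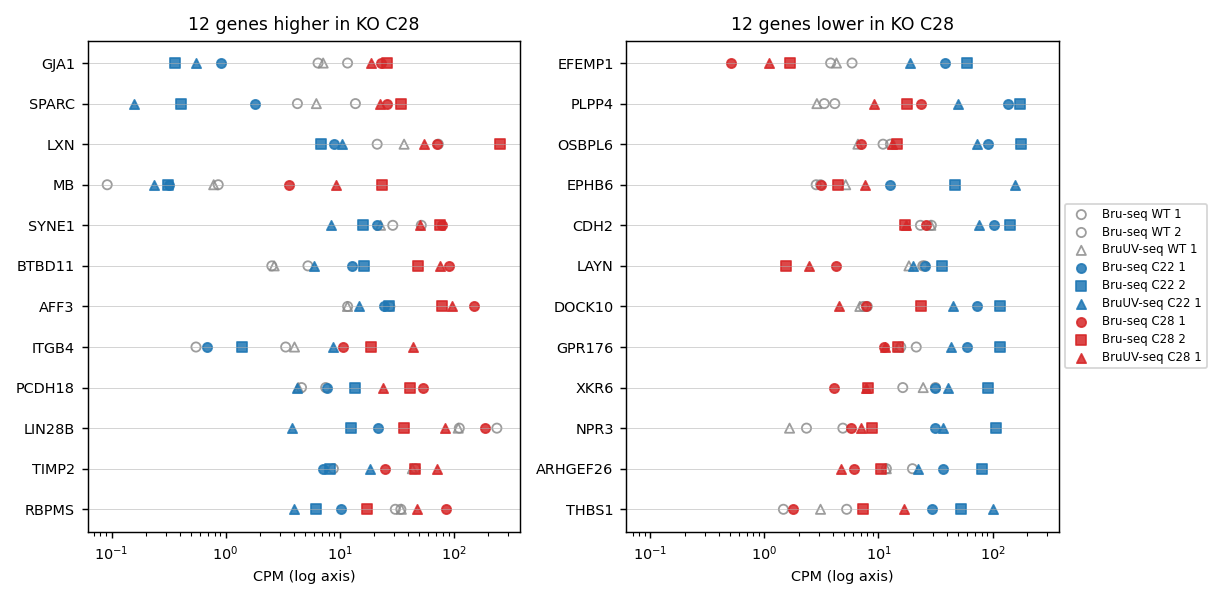
CPM of the 24 named genes in each of the 9 libraries on a log axis, with the 12 higher in KO C28 on the left and the 12 lower on the right; circles and squares are Bru-seq, triangles BruUV-seq, blue KO C22, red KO C28 and open grey WT. The clones do not overlap within an assay for any of the 24, which the naming rule required; WT (not used by the rule) lies nearer KO C28 in both assays for 9 of the 12 lower genes.

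Over these 24 genes, log2 differences ran from 2.11 to 5.38 in the higher set and from -5.04 to -2.38 in the lower set, with standard errors of 0.437 to 1.01 and edgeR adjusted p of 0.452 to 0.998. Without Bru-seq KO C28 replicate 2 the adjusted p ran from 0.139 to 0.409. DESeq2 passed all 24 and the weighted limma-voom fit 23, all but MB. The 24 were chosen for a small p and no overlap in these same libraries, so those calls are no independent support. The WT libraries, which the naming rule did not use, lay nearer KO C28 in both assays for 7 of the 12 higher genes and nearer KO C22 for the other 5. Among the 12 lower genes WT lay nearer KO C28 for 9 and nearer KO C22 for 2 (LAYN and XKR6), and ARHGEF26 differed between the assays. The same count over every gene without overlap gave another picture. Of the 1680 genes higher in KO C28 WT lay nearer KO C28 in both assays for 31.6% and nearer KO C22 for 39.7%, and of the 2201 lower genes for 25.3% and 43.6%.

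A single gene met a read-count rule for being nearly silent in 1 clone only. KLF9, a Kruppel-like transcription factor induced by glucocorticoids (ENSG00000119138.4, chr9:70384597-70414624, minus strand), had 81 and 123 reads in Bru-seq KO C22 and 57 in BruUV-seq, against 3, 0 and 2 in the same libraries of KO C28. WT gave 22, 484 and 194 reads. Scaled for library size, KO C22 over KO C28 was a ratio of 40.2, with an exact 95% interval of 17.0 to 125 that covers counting error only. It was the only gene of 57733 with at least 50 reads in each library of KO C22 and at most 10 over the 3 of KO C28 (0.00173%), and no gene met the reverse (0.0%). MB in KO C22 and ANKRD1 in KO C28 were also near 0 but fell outside these cut-offs. KLF9 did not pass edgeR (adjusted p = 0.998), and passed DESeq2 and the weighted limma-voom fit (adjusted p = 0.00149 and 0.0442). The spread within WT, from 22 to 484 reads, was larger than that within either clone.

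Gene groups were read from 39 lists of named members, each set beside all 22007 genes, of which 51.9% lay above 0 with a median of 0.04, 7.63% higher without overlap and 10.0% lower. No member of any list passed edgeR. For some lists, medians are also given for each of the 4 Bru-seq pairs of libraries (KO C28 replicate 1 minus KO C22 replicates 1 and 2, then KO C28 replicate 2 minus the same) and for BruUV-seq. The interferon, NF-kB, stress response and ribosomal protein lists each had the same sign in all 5 pairs, the ribosomal list with only 0.0591 in BruUV-seq.

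Interferon-stimulated genes, the antiviral response induced by type I interferon, stood higher in KO C28. In this list 31 of 37 tested members lay above 0 and 6 below, with a median log2 difference of 0.86 (0.55 without Bru-seq KO C28 replicate 2). Of these, 17 members (45.9%) lay higher in KO C28 without overlap and 0 lower. The list medians were 0.79, 0.74, 1.64 and 1.39 over the Bru-seq pairs and 0.38 in BruUV-seq. OASL, a relative of the antiviral oligoadenylate synthetases, stood at 15.5 and 18 CPM in Bru-seq KO C28 against 2.71 and 6.6 in KO C22, and 41.6 against 3.77 in BruUV-seq (WT 1.24, 19.8 and 6.16). IFIT2, which binds viral RNA, stood at 32.7 and 62.5 CPM in Bru-seq KO C28 against 6.22 and 19 in KO C22, and 31.1 against 12.6 in BruUV-seq (WT 8.89, 62.7 and 19.2). IFIT5 of the same family stood at 17 and 14.2 CPM in Bru-seq KO C28 against 3.29 and 3.37 in KO C22, and 15.3 against 7.84 in BruUV-seq (WT 14.1, 13 and 16.7). For all 3 genes every KO C28 library lay above KO C22 of its assay, and for OASL and IFIT2 the WT replicates lay far apart. IRF7, a transcription factor of the interferon response, was at 0.51 and 4.8 CPM in Bru-seq KO C28 against 0.0532 and 0.135 in KO C22, and 6.73 against 1.65 in BruUV-seq (WT 1.1, 0.69 and 1.79). The other members without overlap included OAS1, OAS2, OAS3, IFI44, IFIT3, HERC5, DDX60 and SAMD9L. OASL was the member called by DESeq2 and by the weighted limma-voom fit, 1 gene in each.

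NF-kB factors and their inflammatory targets stood lower in KO C28. In this list 7 of 20 tested members lay above 0 and 13 below, with a median log2 difference of -0.55 (-0.66 without Bru-seq KO C28 replicate 2). Of these, 8 members (40.0%) lay lower without overlap and 0 higher, and the list medians were -0.94, -0.70, -1.61 and -1.42 over the Bru-seq pairs and -0.38 in BruUV-seq. BIRC3, an inhibitor of apoptosis induced by NF-kB, stood at 82.4 and 34.8 CPM in Bru-seq KO C28 against 412 and 257 in KO C22, and 40.4 against 159.5 in BruUV-seq (WT 138, 144 and 103). TRAF1, an adaptor of TNF receptors, stood at 11.3 and 6.72 CPM in Bru-seq KO C28 against 78.3 and 42.3 in KO C22, and 17.7 against 39.6 in BruUV-seq (WT 5.73, 18.4 and 13.8). TNIP1, which restrains NF-kB signalling, stood at 49.6 and 25.6 CPM in Bru-seq KO C28 against 117 and 166 in KO C22, and 96.7 against 332 in BruUV-seq (WT 42, 74.2 and 69.2). All 3 genes stood highest in KO C22 in both assays, above WT, and each was called by DESeq2 and by the weighted limma-voom fit. ICAM1, an adhesion molecule for leukocytes, stood at 2.99 and 1.44 CPM in Bru-seq KO C28 against 11.1 and 8.76 in KO C22, and 9.89 against 17.6 in BruUV-seq (WT 4.36, 24.6 and 15.3). NFKB1, TNFAIP3, SOD2 and CD83 also lay lower in KO C28 without overlap.

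Chemokine and cytokine genes that separated the clones were mostly lower in KO C28. CXCL8, which recruits neutrophils through CXCR1 and CXCR2, stood at 2.48 and 3.84 CPM in Bru-seq KO C28 against 40.1 and 6.38 in KO C22, and 2.76 against 8.55 in BruUV-seq (WT 2.84, 17.5 and 3.63), lower in every KO C28 library than in KO C22 of its assay. Of the 7 CXCR2 ligand genes 4 were tested, and CXCL8 was the only one without overlap. All 4 lay below 0 with all 6 libraries and 3 without Bru-seq KO C28 replicate 2, with medians of -1.01 and -0.75. The list medians were -2.13, 1.06, -3.83 and -1.05 over the Bru-seq pairs and 0.0075 in BruUV-seq, so the pairs did not share a sign. CXCL2 stood at 2.42 and 0 CPM in Bru-seq KO C28 against 13.7 and 1.35 in KO C22, and 3.56 against 3.69 in BruUV-seq (WT 0.825, 1.29 and 0.524), and CXCL1 and CXCL2 were both high in Bru-seq KO C22 replicate 1. IL18, a cytokine of the IL-1 family, stood at 9.81 and 10.3 CPM in Bru-seq KO C28 against 42.4 and 171 in KO C22, and 10.3 against 40 in BruUV-seq (WT 80.4, 216 and 93.7). The KO C28 values of IL18 lay close together and below WT as well as KO C22. Among the other cytokines 6 of 17 lay lower without overlap (CSF1, IL18, IL32, IL11, IL15 and CSF2) and 1 higher (CCL28).

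The unfolded protein and amino acid stress response leaned lower in KO C28, with 10 of 36 members lower without overlap (27.8%) and 3 higher (8.33%), and a median of -0.24 (-0.25 without Bru-seq KO C28 replicate 2). The list medians were -0.19, -0.15, -0.56 and -0.27 over the Bru-seq pairs and -0.31 in BruUV-seq. SLC7A11, the cystine transporter, stood at 31.1 and 15.4 CPM in Bru-seq KO C28 against 93.5 and 145 in KO C22, and 26.1 against 54.4 in BruUV-seq (WT 49.1, 277 and 79.5). PSAT1, of serine synthesis, stood at 25.3 and 19.9 CPM in Bru-seq KO C28 against 55.7 and 89.98 in KO C22, and 37.5 against 85.6 in BruUV-seq (WT 54.1, 137 and 107). VLDLR, a lipoprotein receptor, stood at 1.08 and 0.84 CPM in Bru-seq KO C28 against 8.08 and 6.6 in KO C22, and 0.287 against 7.69 in BruUV-seq (WT 1.05, 5.09 and 2.4). DDIT4, an inhibitor of mTOR signalling, went the other way at 23.9 and 43.1 CPM in Bru-seq KO C28 against 13.6 and 4.62 in KO C22, and 105 against 34.6 in BruUV-seq (WT 20.8, 28.8 and 96.5). WT replicate 2 was well above replicate 1 for SLC7A11 and PSAT1. Cholesterol synthesis genes had 23 of 31 members below 0, with a median of -0.335 (-0.262 without Bru-seq KO C28 replicate 2). Their list medians were 0.087, -0.47, 0.0549 and -0.605 over the Bru-seq pairs and -0.389 in BruUV-seq. The pairs with Bru-seq KO C22 replicate 1 thus lay above 0 for these genes. Of these genes 7 lay lower without overlap (22.6%), among them the sterol transporter STARD4 (log2 difference of -1.38 (SE 0.51), -1.13 without Bru-seq KO C28 replicate 2) and MSMO1 (log2 difference of -0.78 (SE 0.43), -0.58 without Bru-seq KO C28 replicate 2).

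Genes of epithelial contacts and keratins leaned higher and mesenchymal genes lower in KO C28, but not in every pair of libraries. In the epithelial list 27 of 37 tested members lay above 0 and 10 below, with a median log2 difference of 0.76 (0.16 without Bru-seq KO C28 replicate 2). Without overlap 10 lay higher (27.0%) and 4 lower (10.8%). KRT8, a keratin of simple epithelia, stood at 111 and 742 CPM in Bru-seq KO C28 against 37.6 and 77.7 in KO C22, and 725 against 153 in BruUV-seq (WT 121, 124 and 299.5). KRT19, a ductal keratin, stood at 135 and 578 CPM in Bru-seq KO C28 against 47.8 and 24.9 in KO C22, and 259 against 116 in BruUV-seq (WT 81.5, 43 and 92.7). KRT18, the partner of KRT8, stood at 59.4 and 649.9 CPM in Bru-seq KO C28 against 24.2 and 42.4 in KO C22, and 379.9 against 154 in BruUV-seq (WT 68.1, 55.4 and 165). Bru-seq KO C28 replicate 2 gave the highest Bru-seq value of each keratin, and replicate 1 of KO C28 lay at the level of WT for KRT8 and KRT18. Log2 differences of KRT8, KRT18 and KRT19 were 2.67, 2.73 and 2.61 with that library and 1.52, 1.04 and 1.57 without it. CDH3, P-cadherin, stood at 6.75 and 12.4 CPM in Bru-seq KO C28 against 2.98 and 1.89 in KO C22, and 22.9 against 1.41 in BruUV-seq (WT 0.504, 1.94 and 2.05). OCLN, occludin of tight junctions, lay the other way at 9.11 and 3.96 CPM in Bru-seq KO C28 against 28.8 and 58.4 in KO C22, and 19.9 against 39.5 in BruUV-seq (WT 59.2, 76.3 and 75.6). The list medians were 0.56, -0.28, 1.68 and 1.43 over the Bru-seq pairs and 0.75 in BruUV-seq, so 1 pair had the opposite sign.

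In the mesenchymal list 11 of 34 members (32.4%) lay lower without overlap and 5 higher (14.7%), with a median of -0.19 (-0.48 without Bru-seq KO C28 replicate 2). TPM1, a tropomyosin of stress fibres, stood at 164 and 139 CPM in Bru-seq KO C28 against 527 and 788 in KO C22, and 319.9 against 1650 in BruUV-seq (WT 133, 386 and 153). MYL9, a myosin light chain, stood at 5.1 and 6.96 CPM in Bru-seq KO C28 against 22.3 and 14.7 in KO C22, and 11.3 against 33.4 in BruUV-seq (WT 2.93, 29 and 10.4). CDH2, described above, belongs to this list, and so does SPARC, which lay the other way. ZEB1, CD44, AXL, LOX, LOXL2, NT5E, CALD1 and MMP14 were the other members lower without overlap. The list medians were -0.37, -0.59, 0.26 and 0.22 over the Bru-seq pairs and -0.31 in BruUV-seq, so the pairs with Bru-seq KO C28 replicate 2 had the opposite sign. The summed level of the 4 mesenchymal markers VIM, CDH2, FN1 and ZEB1 was 1330 and 1450 CPM in Bru-seq KO C28 against 1300 and 1210 in KO C22, and 1130 against 2010 in BruUV-seq. That of the 6 ductal markers was 319, 2000 and 1390 CPM in KO C28 (Bru-seq replicates 1 and 2, then BruUV-seq) and 115, 153 and 434 in KO C22.

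Matrix and adhesion genes split by family member. In the list of laminins and matrix glycoproteins, 11 of 41 (26.8%) lay lower without overlap, EFEMP1 and THBS1 among them, and only SPARC (2.44%) higher. MATN2, a matrilin, stood at 2.48 and 8.64 CPM in Bru-seq KO C28 against 18.3 and 19.1 in KO C22, and 4.03 against 38.9 in BruUV-seq (WT 9.17, 8.79 and 9.13). COL11A1, a fibrillar collagen, stood at 94.4 and 32.3 CPM in Bru-seq KO C28 against 361 and 1203 in KO C22, and 60.3 against 342 in BruUV-seq (WT 880.5, 857 and 475), lower in every KO C28 library than in any KO C22 or WT library of its assay. COL4A5, a basement membrane collagen, stood at 7.39 and 62.9 CPM in Bru-seq KO C28 against 44.3 and 104 in KO C22, and 4.54 against 36.4 in BruUV-seq (WT 156, 215 and 106). It overlapped through Bru-seq KO C28 replicate 2, and its log2 difference was -1.69 with that library and -3.18 without it. COL6A1 lay the other way at 2.36 and 14.8 CPM in Bru-seq KO C28 against 1.12 and 0.763 in KO C22, and 21.4 against 9.49 in BruUV-seq (WT 0.825, 3.32 and 5.07). ITGA11, a collagen-binding integrin subunit, stood at 1.85 and 3.6 CPM in Bru-seq KO C28 against 10.5 and 20.7 in KO C22, and 3.39 against 18.9 in BruUV-seq (WT 0.321, 1.29 and 0.568), and FERMT1, kindlin-1 of epithelial adhesion, lay the other way at 11.5 and 14.9 CPM in Bru-seq KO C28 against 3.61 and 3.91 in KO C22, and 17.4 against 4.08 in BruUV-seq (WT 3.9, 4.18 and 3.37). ADAMTS15 and ADAMTS6, secreted proteases, had log2 differences of 1.79 (SE 0.48) and -1.25 (SE 0.42), 1.97 and -1.26 without Bru-seq KO C28 replicate 2.

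The medians of 6 lists of matrix, adhesion, guidance and receptor genes turned sign with 1 library. Without Bru-seq KO C28 replicate 2 the median of collagens went from 0.39 to -0.56, of laminins and matrix glycoproteins from 0.49 to -0.54, of cadherins and protocadherins from 0.98 to -0.60, of axon guidance genes from 0.21 to -0.33, of matrix proteases from 0.06 to -0.41 and of receptor tyrosine kinases and ligands from 0.36 to -0.34. Against 10.0% of all genes lower without overlap, the share was 26.8% for laminins and matrix glycoproteins, 23.3% for matrix proteases and 17.6% for receptor tyrosine kinases and ligands. With all 6 libraries it was near that background for cadherins (10.8%) and axon guidance genes (11.4%), and 5% for collagens. Without Bru-seq KO C28 replicate 2, 16.2% of all genes lay lower and 19.1% higher. Then 12 of 38 collagens lay lower and 3 higher, and 16 and 2 of 36 laminins and matrix glycoproteins. The counts were 8 and 4 of 34 cadherins, 9 and 3 of 44 axon guidance genes, 14 and 6 of 40 matrix proteases and 11 and 9 of 47 receptor genes. NTN1, the guidance cue netrin-1, stood at 4.52 and 13.4 CPM in Bru-seq KO C28 against 25.4 and 53.2 in KO C22, and 8.05 against 48.8 in BruUV-seq (WT 6.05, 7.46 and 8.09). SEMA3E, a semaphorin, stood at 3.38 and 37.2 CPM in Bru-seq KO C28 against 38.1 and 74.9 in KO C22, and 2.65 against 29.6 in BruUV-seq (WT 9.99, 14.7 and 6.55), with Bru-seq KO C28 replicate 2 near the level of KO C22 replicate 1. EPHB2, an Eph receptor, stood at 105 and 56.8 CPM in Bru-seq KO C28 against 162 and 493 in KO C22, and 174 against 418 in BruUV-seq (WT 72.1, 91 and 112). HBEGF, a ligand of the EGF receptor, and ERBB2, a receptor of the same family, had log2 differences of -2.33 (SE 0.73) and 1.64 (SE 0.55), -1.69 and 1.14 without Bru-seq KO C28 replicate 2.

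Genes of the Hippo pathway and of YAP and TEAD, which control growth with cell contact, stood lower in KO C28 in Bru-seq, while the list median in BruUV-seq was above 0. In this list 5 of 36 tested members lay above 0 and 31 below, with a median log2 difference of -0.71 (-0.32 without Bru-seq KO C28 replicate 2), and 15 (41.7%) lay lower without overlap against 2 higher (5.56%). The list medians were -0.23, -1.10, -1.44 and -2.24 over the Bru-seq pairs and 0.10 in BruUV-seq. ANKRD1, a classic YAP target, stood at 0.0637 and 0 CPM in Bru-seq KO C28 against 5.42 and 4.22 in KO C22, and 0.403 against 3.69 in BruUV-seq (WT 9.58, 8.41 and 10.4). The KO C28 libraries held 0 to 0.403 CPM of it, below both other lines. AMOTL1, a scaffold that binds YAP, stood at 2.93 and 13.6 CPM in Bru-seq KO C28 against 14.3 and 44.7 in KO C22, and 6.56 against 36.9 in BruUV-seq (WT 62.8, 62 and 53.5). TGFB2, a ligand of the TGF-beta family, stood at 52.4 and 23.9 CPM in Bru-seq KO C28 against 223 and 702 in KO C22, and 85.5 against 124 in BruUV-seq (WT 72.7, 141 and 109). WWC1, an upstream Hippo regulator, stood at 27.1 and 21.8 CPM in Bru-seq KO C28 against 77.3 and 103 in KO C22, and 43.6 against 64.9 in BruUV-seq (WT 94.8, 64.8 and 86.4). YAP1 itself and the kinases STK3 and STK4, chosen after their values were seen, lay lower without overlap, with the lowest Bru-seq values in KO C28 replicate 2 (182, 114 and 86.6 CPM). TGF-beta pathway genes had 22 of 31 members below 0 and 7 lower without overlap (22.6%), with a median of -0.361 (-0.144 without Bru-seq KO C28 replicate 2). BMP7, a ligand of that family, was the only one higher without overlap (log2 difference of 1.72 (SE 0.64), 1.97 without Bru-seq KO C28 replicate 2).

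Ribosomal protein genes and oxidative phosphorylation genes stood higher in Bru-seq KO C28. Of 77 ribosomal protein genes 72 lay above 0 and 26 (33.8%) higher without overlap, with a median of 0.84 (0.47 without Bru-seq KO C28 replicate 2). The list medians were 0.37, 1.28, 1.29 and 2.26 over the Bru-seq pairs and 0.06 in BruUV-seq. The pair of first replicates gave the smallest Bru-seq median and the pair of second replicates the largest. RPL38, of the large subunit, stood at 197 and 473 CPM in Bru-seq KO C28 against 108 and 54.9 in KO C22, and 210.2 against 113 in BruUV-seq (WT 218, 120.4 and 239) and RPL27 at 53.3 and 159 CPM in Bru-seq KO C28 against 27.7 and 14.5 in KO C22, and 55.7 against 47.8 in BruUV-seq (WT 63, 37.9 and 74.2). Of 49 oxidative phosphorylation genes 40 lay above 0 and 11 (22.4%) higher without overlap, with a median of 0.56 (0.23 without Bru-seq KO C28 replicate 2), and COX7B, a subunit of cytochrome c oxidase, stood at 58.2 and 82.7 CPM in Bru-seq KO C28 against 27.6 and 15.8 in KO C22, and 48.2 against 21.8 in BruUV-seq (WT 61.2, 30.4 and 64.8). Its relative COX6B1 had a log2 difference of 1.45 (SE 0.52), 0.93 without Bru-seq KO C28 replicate 2. The BruUV-seq median of the oxidative phosphorylation list was -0.15, opposite to Bru-seq.

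Developmental regulators differed one by one. HOXC13, a homeobox gene of the HOXC cluster, stood at 25.4 and 30.5 CPM in Bru-seq KO C28 against 8.08 and 8.62 in KO C22, and 36.1 against 3.69 in BruUV-seq (WT 21.6, 23.8 and 38.9). Of 23 tested HOX genes 4 (17.4%) lay higher without overlap and 0 lower, with a median of 0.346 (0.0964 without Bru-seq KO C28 replicate 2). TBX2, a T-box repressor, stood at 7.77 and 12.2 CPM in Bru-seq KO C28 against 1.06 and 1.75 in KO C22, and 22.8 against 3.69 in BruUV-seq (WT 4.91, 4.14 and 13.3). NR2F1, an orphan nuclear receptor, stood at 78.1 and 141 CPM in Bru-seq KO C28 against 23.1 and 50.3 in KO C22, and 88.8 against 26.7 in BruUV-seq (WT 12.9, 73.8 and 39.3). KO C28 was highest in each assay for NR2F1, and for TBX2 too. WT1, the Wilms tumour factor, lay the other way at 1.34 and 3.24 CPM in Bru-seq KO C28 against 25.8 and 29.1 in KO C22, and 5.23 against 14 in BruUV-seq (WT 30.7, 19.96 and 20.4). GATA6, a factor of pancreatic and classical-subtype tumour identity, stood at 0.51 and 0.12 CPM in Bru-seq KO C28 against 20.8 and 24.3 in KO C22, and 2.65 against 5.18 in BruUV-seq (WT 5.36, 17.7 and 8.43). The Bru-seq libraries of KO C28 were below both other lines for GATA6 and WT1. Of 46 tested developmental factors 10 (21.7%) lay higher and 4 (8.70%) lower without overlap. Their median was 0.629 (0.261 without Bru-seq KO C28 replicate 2).

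The Polycomb list, whose complexes write the mark that KDM6A removes, had 16 of 31 members above 0. Without Bru-seq KO C28 replicate 2 it had 22 above 0 and 9 below, and its median was 0.158 against 0.116 with that library. The list medians were 0.10, 0.17, -0.27 and -0.60 over the Bru-seq pairs and 0.37 in BruUV-seq. The pairs with Bru-seq KO C28 replicate 2 thus had the opposite sign. Of the Polycomb members 7 lay higher without overlap (22.6%), PCGF2 and EZH1 among them, and EED and EZH2 (6.45%) lay lower. PCGF2, a subunit of the repressive complex 1, stood at 17.3 and 14.6 CPM in Bru-seq KO C28 against 10.3 and 8.53 in KO C22, and 52.4 against 22 in BruUV-seq (WT 16.6, 16.2 and 45.1). KO C22 was the lowest line in each assay for PCGF2. Of 11 tested KDM6 and COMPASS-like genes none lay higher without overlap and 2 lower (NCOA6 and ASH2L).

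Of pancreatic lineage and tumour subtype markers 28 of 60 were tested. MUC5AC, a gastric mucin, stood at 1.98 and 16.7 CPM in Bru-seq KO C28 against 0 and 0.18 in KO C22, and 16.4 against 2.9 in BruUV-seq (WT 0.321, 0.345 and 2.14). AGR2, a disulfide isomerase of secretory epithelia, stood at 38.7 and 50.9 CPM in Bru-seq KO C28 against 3.29 and 8.58 in KO C22, and 13.9 against 10.8 in BruUV-seq (WT 64.3, 88.8 and 59.8). AGR2 was below WT in every library of the clones, KO C22 being the lower clone. Among p53 targets GDF15, a stress-induced cytokine, stood at 9.81 and 52.7 CPM in Bru-seq KO C28 against 5.1 and 5.84 in KO C22, and 222 against 45.2 in BruUV-seq (WT 14.1, 88.3 and 661), and CDKN1A, the cell cycle inhibitor p21, at 11.7 and 7.2 CPM in Bru-seq KO C28 against 44 and 34.8 in KO C22, and 61.9 against 77.8 in BruUV-seq (WT 12, 32.6 and 29.1). UV-treated WT had the highest GDF15 value of all libraries. FOS, an immediate early gene, had a log2 difference of 1.41 (SE 0.67), 1.46 without Bru-seq KO C28 replicate 2, and every library of both clones lay below WT of its assay (22.1, 72.5 and 103 CPM in WT).

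Signalling genes of the WNT and NOTCH pathways showed no common direction, with list medians of -0.11 and 0.03 (-0.24 and 0.02 without Bru-seq KO C28 replicate 2). WNT16, a WNT ligand, stood at 9.75 and 2.88 CPM in Bru-seq KO C28 against 0.585 and 0.898 in KO C22, and 3.45 against 0.392 in BruUV-seq (WT 0.734, 0.302 and 0.393). DKK1, a secreted WNT inhibitor, stood at 490.5 and 496 CPM in Bru-seq KO C28 against 219 and 106 in KO C22, and 668 against 238 in BruUV-seq (WT 316, 201 and 999). MAML2, a NOTCH coactivator, stood at 85.1 and 47.6 CPM in Bru-seq KO C28 against 25.2 and 29.9 in KO C22, and 31.1 against 14.2 in BruUV-seq (WT 159.8, 152 and 76.5). JAG1, a NOTCH ligand, lay the other way at 82.8 and 44.8 CPM in Bru-seq KO C28 against 214 and 356 in KO C22, and 100.5 against 110.3 in BruUV-seq (WT 36.4, 82.4 and 36.2). KO C28 was the higher clone in each assay for WNT16, DKK1 and MAML2. Hypoxia and glycolysis genes also split, 5 higher and 5 lower without overlap of 38. SLC16A3, a lactate exporter, stood at 54.2 and 68.8 CPM in Bru-seq KO C28 against 20.9 and 14 in KO C22, and 159.8 against 73 in BruUV-seq (WT 49.6, 42.3 and 97.4) and ADM, adrenomedullin, had a log2 difference of 1.73 (SE 0.55), 1.08 without Bru-seq KO C28 replicate 2. EPAS1, the hypoxia factor HIF-2 alpha, and PLOD2, a collagen hydroxylase, had log2 differences of -2.11 (SE 0.79) and -1.27 (SE 0.48), -1.79 and -1.23 without Bru-seq KO C28 replicate 2.

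**Figure D4:**
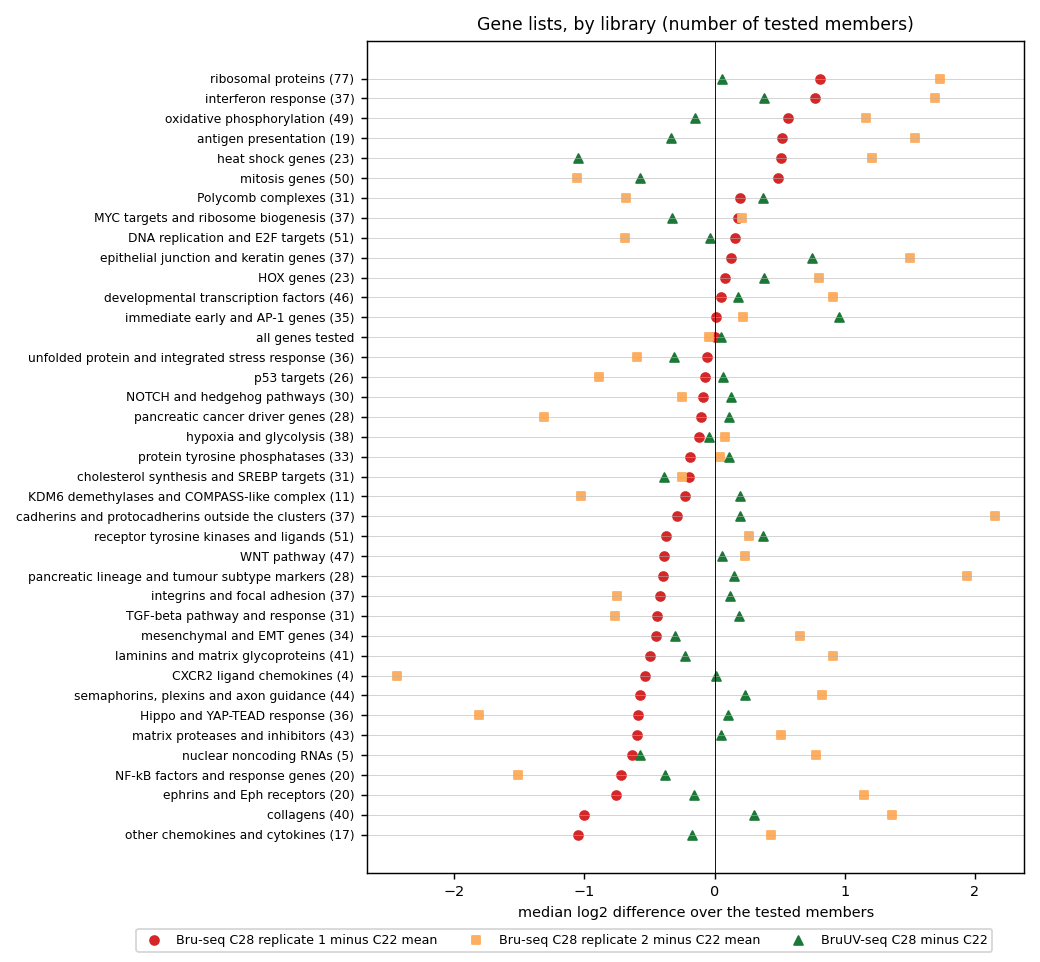
Median log2 difference of each gene list between KO C28 and KO C22 for Bru-seq KO C28 replicate 1 (red circles) and replicate 2 (orange squares), each minus the mean of the KO C22 Bru-seq libraries, and for the BruUV-seq pair (green triangles); the number of tested members is in brackets. The interferon list lies above 0 in all 3 (0.77, 1.69 and 0.38) and the NF-kB list below 0 (-0.72, -1.51 and -0.38), while replicate 2 lies far from the others for collagens and cadherins.

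Along the genome, chromosome 15 was the lowest and chromosome X the highest chromosome by median. The median over 801 genes of chromosome 15 was -0.35 with and -0.35 without Bru-seq KO C28 replicate 2, and it was -0.33, -0.32, -0.63 and -0.84 in the 4 Bru-seq pairs and -0.16 in BruUV-seq. Every pair gave the same sign. Of its genes 25.3% lay lower without overlap, against 10.0% of all genes. The 10 Mb windows at 40 to 50 Mb and 50 to 60 Mb of chromosome 15 were among the 5 lowest of the genome, at -0.50 (134 genes) and -0.56 (85 genes), and at -0.37 and -0.35 without Bru-seq KO C28 replicate 2. The other 3 were chromosome 6 at 10 to 20 Mb (-0.50), chromosome 9 at 0 to 10 Mb (-0.48) and chromosome 4 at 120 to 130 Mb (-0.48). Without that library these 3 stood at -0.38, -0.23 and -0.29, and the BruUV-seq median of the chromosome 9 window was 0. Relative to WT, chromosome 15 lay at 0.19 in Bru-seq KO C22 and -0.13 in Bru-seq KO C28 replicate 1. In BruUV-seq it lay at 0 in KO C22 and -0.18 in KO C28.

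The median of chromosome X over 636 genes was 0.47 (0.25 without Bru-seq KO C28 replicate 2), and it was 0.32, 0.32, 0.81 and 0.64 in the 4 Bru-seq pairs and 0.11 in BruUV-seq. Relative to WT it lay at -0.35 in Bru-seq KO C22 and -0.02 in Bru-seq KO C28 replicate 1, and in BruUV-seq at -0.18 in KO C22 and 0 in KO C28. Chromosomes 17 and 12 followed, at 0.29 and 0.29 (0.23 and 0.21 without that library), and all 5 pairs of both were above 0. Of the 5 highest windows, chromosome X at 30 to 40 Mb lay at 1.05 and chromosome 20 at 60 to 70 Mb at 0.83, the latter with 57 of 67 genes above 0. Without Bru-seq KO C28 replicate 2 they stood at 0.56 and 0.47, and all 5 pairs were above 0 in both. The other 3 turned sign without that library. Chromosome 5 at 20 to 30 Mb (20 genes) went from 0.96 to -0.91 without it. Chromosome X at 140 to 150 Mb (19 genes) went from 0.95 to -0.04. Chromosome 13 at 60 to 70 Mb (12 genes) went from 0.94 to -0.01. In all 3, Bru-seq KO C28 replicate 1 had a median below 0 against KO C22 replicate 1 and above 0 against replicate 2. These medians were -1.63 and 1.51 for chromosome 5, -0.30 and 0.31 for chromosome X, and -1.36 and 1.70 for chromosome 13.

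**Figure D5:**
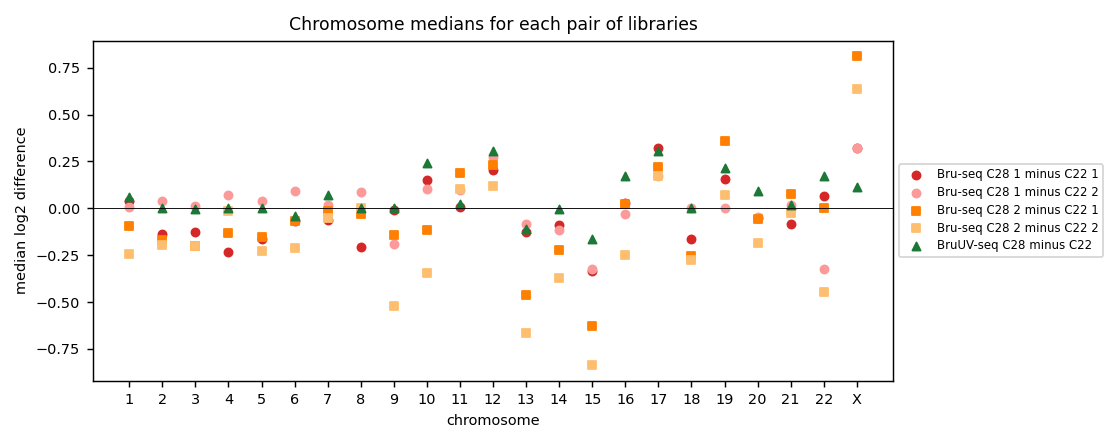
Median log2 difference, KO C28 minus KO C22, over the genes of each chromosome for the 4 pairs of Bru-seq libraries (circles with KO C28 replicate 1, squares with replicate 2) and the BruUV-seq pair (triangles). Chromosome 15 is below 0 and chromosome X above 0 in all 5 pairs; the Bru-seq pairs share libraries and are not independent.

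Differences between the clones varied with gene length, and 1 library differed from the rest at long genes. For 1594 genes over 200 kb the median was 0.28 with all libraries and -0.40 without Bru-seq KO C28 replicate 2. The replicates of KO C28 themselves differed by -1.83 (replicate 1 minus replicate 2). The BruUV-seq median of these genes was -0.02. Genes of 50 to 200 kb lay at -0.18 and genes under 10 kb at 0.23, against -0.18 and 0.19 without that library. Without it the medians thus went from above 0 in the shortest class to below 0 in both long classes. An offset for the trend with length left 0 genes called by edgeR and 557 at unadjusted p below 0.05.

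Whether the clone difference depended on the assay was tested as an interaction. In edgeR 0 of 25686 genes passed (0.0%) and 395 (1.54%) had an unadjusted p below 0.05, and in DESeq2 0 passed and 413 had an unadjusted p below 0.05. The genes of smallest p with a higher BruUV-seq difference were DUSP5, a phosphatase of ERK signalling, HBEGF, PXDC1 and GATA6. DUSP5 stood at 62.9 and 26.04 CPM in Bru-seq KO C28 against 71.4 and 238.9 in KO C22, and 257 against 73.2 in BruUV-seq. HBEGF stood at 12.9 and 7.32 CPM in Bru-seq KO C28 against 97.6 and 101 in KO C22, and 32.3 against 36.5 in BruUV-seq (WT 11.7, 51.5 and 18.3). Those with a lower BruUV-seq difference were short genes, TCEAL9, CETN2 (a centriole protein), UBXN1 and CHMP2A (an ESCRT-III subunit), of 2000 to 3805 bases. TCEAL9 stood at 27.5 and 153.7 CPM in Bru-seq KO C28 against 16.2 and 17.96 in KO C22, and 46.5 against 123.6 in BruUV-seq. For these 4 genes Bru-seq KO C28 replicate 2 was the highest Bru-seq library.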

How the data were processed

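Column 7 of each deposited table holds estimated counts of reads over gene bodies, made by the authors for each library without pooling, and column 8 their RPKM, deposited beside it and not used in any test. CASAVA 1.8.2, Bowtie2 2.3.3, STAR 2.5.3a, bedtools 2.16.2 and the builds hg38 and GRCh38 are named without roles, per the submitters' processing notes. No source used here gives the annotation release. The protocol calls libraries strand-specific only for certain samples, so reads of a gene and an overlapping antisense gene may not be told apart. Counts were rounded and analysed in R 4.3.3 with edgeR 4.0.16 (TMM, filterByExpr, assay as covariate, quasi-likelihood test, Benjamini-Hochberg at 0.05). Alternatives used limma 3.58.1 and DESeq2 1.42.0, other filters and normalizations, fits without each library, a replicate block, a length offset and a background subtraction. The scripts were tested on simulated data. The members and the gene lists were chosen with earlier results of these data known.

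The named genes are KDM6A, KDM6B and CXCL1, then 12 per direction that pass, or where none passes those of smallest unadjusted p, with a mean of at least 100 reads in the higher clone, no overlap within either assay and under 50% of the gene body beneath a more abundant gene. Up to 4 members of smallest p are named per list, and 5 windows of 10 Mb at each end. The 39 lists held 1410 symbols, of which 1399 were in the tables and 1247 were tested. Totals of 5.643 to 31.13 M reads in genes set the precision, and the shallowest library, Bru-seq KO C28 replicate 2, gives the least. Intervals are exact 95% intervals for counting error only. Replicate numbers are shared by the clones in the labels, but the replicate differences of the clones correlated at -0.468 over 22007 genes, so the numbers were not used as pairs. Every per-sample column belonged to a sample of the series. Some items are not reported here.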

Additional observations from a re-analysis of the deposited data

Results flagged for a closer look

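In 5 genes named in the text the single BruUV-seq pair differed opposite to every Bru-seq library, KO C28 minus KO C22 on the log2 scale. Only genes named in the text were looked at, so the number over all tested genes is not known. The BruUV-seq difference was 1.81 for DUSP5 and 0.916 for PXDC1, whose Bru-seq libraries all lay lower in KO C28. It was -1.41 for TCEAL9, -1.40 for CETN2 and -1.51 for CHMP2A, whose Bru-seq libraries all lay higher in KO C28. The interaction of clone and assay was tested for each, and none of the 5 passed edgeR's quasi-likelihood test (adjusted p = 1). BruUV-seq had 1 library per clone, so its own spread was not measured.

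The medians of 8 gene lists also had a sign in BruUV-seq opposite to that of all 4 Bru-seq pairs. Above 0 in BruUV-seq were the TGF-beta pathway (0.191), integrins and focal adhesion (0.115), the Hippo and YAP-TEAD response (0.104) and p53 targets (0.0655). Below 0 were heat shock genes (-1.05), antigen presentation (-0.338), MYC targets and ribosome biogenesis (-0.331) and oxidative phosphorylation (-0.153). These list differences between the assays were not tested, and the Bru-seq pairs share libraries.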

How the results depend on the processing

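The count of genes separating the clones was 0 in edgeR with RLE size factors, a mean of at least 50 counts, Bru-seq alone, all 9 libraries, a length offset and background subtraction, and in unweighted limma-voom. Leaving out 1 library at a time gave 0 to 1 genes. It was 92 in DESeq2, 163 in limma-voom with sample quality weights and 85 in edgeR with no filter beyond 1 count. Among settings added after the data were seen, it was 224 in DESeq2 without Bru-seq KO C28 replicate 2, 18 in all 9 libraries without it, and 94 with a crossed block, which paired replicate 1 of each clone with replicate 2 of the other. With the replicate block 0 genes passed (426 at unadjusted p below 0.05). DESeq2 and the weighted fit shared 70 genes, and DESeq2 with and without that library 79. The cause of these differences was not tested. The interaction count was 0 in all alternatives run, the replicate block included.

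Among the 94 genes of the text recomputed under each setting, signs reversed for 3, none called in edgeR. Leaving out 1 library at a time, KDM6A ran from -0.859 to 0.253, KDM6B from -0.318 to 0.853 and CXCL1 from -0.71 to 1.15. KDM6A was 0.253 without Bru-seq KO C28 replicate 2, 0.33 in the weighted fit, 0.221 in DESeq2 without that library and 0.182 in all 9 without it. KDM6B was -0.252 without Bru-seq KO C22 replicate 1, -0.318 without Bru-seq KO C28 replicate 2, -0.26 and -0.257 without the BruUV-seq library of KO C22 and of KO C28, -0.14 in Bru-seq alone, -0.124 with the length offset, -0.366 in DESeq2 without Bru-seq KO C28 replicate 2 and -0.0885 in all 9 without it. CXCL1 was 1.15 without Bru-seq KO C22 replicate 1, 0.289 without Bru-seq KO C28 replicate 1, 0.173 in limma-voom, 0.163 with the replicate block, 0.0351 with background subtraction and 0.177 with the crossed block. The others of the 94 kept their sign under the settings run, but most of them were named for a small p in these same libraries. Their kept signs are therefore no independent support. With background subtraction the median of all genes tested was -0.106, against 0.04. Precision is limited by the 6 libraries, the shallowest of which held 5.643 M reads in genes.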
